A study of Mus musculus with 6 samples.

Results

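The proteasome genes described here are the rows of the deposited expression table whose name begins with Psma, Psmb, Psmc, Psmd, Psme, Psmf or Psmg followed by a number. Psmb8, Psmb9 and names with the pseudogene ending -ps were left out, which gave 48 of the 35275 genes. They were followed in a visceral fat depot, the epididymal adipose tissue of C57BL/6 males. WT stands for the 3 samples of genotype Tfrcfl/fl and KO for the 3 of genotype TfrcAKO. Tfrc encodes the transferrin receptor, which takes iron into cells; the labels do not spell out AKO or name the driver of the deletion. The samples are whole tissue, so all its cell types contribute. All mice were fed a diet with 60% fat for 10 weeks from 2 months of age and were 4.5 months old when the fat was taken. Levels are FPKM, read counts scaled to gene length and to the reads of the library. Each level is thus relative to the other RNAs of its sample and not an absolute amount.

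The proteasome is the protease that destroys proteins tagged with ubiquitin. Its 20S core is a barrel of 4 stacked rings, with outer rings of α subunits (Psma) that gate the entrance and inner rings of β subunits (Psmb), of which Psmb5, Psmb6 and Psmb7 carry the chymotrypsin-like, caspase-like and trypsin-like active sites. The 19S regulatory particle caps the core: its base ATPases (Psmc) unfold substrates and its non-ATPase subunits (Psmd) bind and remove ubiquitin. Other caps are the activators PA28 (Psme1 and Psme2, or Psme3) and PA200 (Psme4), and dedicated chaperones (Psmg for the core, Psmd5, Psmd9 and Psmd10 for the base) assist assembly. In cultured mammalian cells a shortage of proteasome activity raises transcription of subunit genes together through the factor Nfe2l1, a route that has also been described in brown fat.

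The reads recovered from the FPKM values ranged from 25252839 to 30650624 per sample. Tfrc, the targeted gene, was at 11.1, 13.2 and 11.9 FPKM in WT replicates 1, 2 and 3 and at 7.10, 8.27 and 9.50 FPKM in KO replicates 1, 2 and 3. Every KO library was below every WT library, by 0.52 ± 0.12 (SE) on the log2 scale with a limma adjusted p of 0.0147. That call was lost without WT replicate 2 (limma adjusted p = 0.0595) or WT replicate 3 (0.0525). All 12 macrophage markers had lower means in KO tissue, 11 of them called, of which 4 kept the call without WT replicate 2 and 6 without WT replicate 3. Their summed level was 6062 to 6997 FPKM in WT and 1486 to 3332 FPKM in KO. Of 12 mature adipocyte markers 10 were called higher, and their sum was 8655 to 11730 FPKM in WT and 19950 to 26670 FPKM in KO. All 5 endothelial markers (median log2 fold change 1.33) and 3 of 4 mesothelial markers (median 0.76) were called higher, and 2 of 6 fibroblast markers, Col1a1 and Col3a1, were called lower, calls that were lost without WT replicate 2 or without WT replicate 3. Of all 14383 tested genes 21.9% were called higher and 21.6% lower. None of these adipocyte and macrophage markers was at 0 in all libraries. KO replicate 3 had the lowest macrophage and the highest adipocyte sum. In such bulk samples, fewer cells of a type and less RNA per cell cannot be told apart, and the part of this shift in the values below was not tested.

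No tested proteasome mRNA differed by as much as 1.5-fold between the group means of log2(FPKM + 0.5). The called genes were mostly subunits of the core and the regulatory particle. Adding 0.5 shrinks the changes of low genes. Psma8 had means of 0.895 FPKM in WT and 0.591 FPKM in KO, a ratio of 0.661. Its log2 fold change with 0.5 added was −0.35, and it was not called. Of the 48 genes 47 passed the expression filter (at least 0.5 FPKM in 3 samples) and were tested. At a limma adjusted p under 0.05, 8 of the 47 fell, where 21.6% of all 14383 tested genes did, and 1 rose, where 21.9% did. In either direction 9 genes, 19.15% of the 47, were called, against a background of 43.5%. The called decreases were Psma5, Psma7, Psmb5, Psmb6, Psmc3, Psmc6, Psmd1 and Psmd8, and the called increase was Psmg1. Each of the 4 structural classes (α ring, β ring, base ATPases, non-ATPases) held 2 of the decreases, which makes 4 of 16 tested core genes and 4 of 17 regulatory-particle genes, near the background of decreases. No change was large. The log2 fold changes ran from −0.54 (Psmb6) to 0.28 (Psmg1), and 0 of 47 exceeded 1 in size, where 10.4% of all tested genes did, and 0 exceeded 0.58 (a 1.5-fold change), where 26.6% did. The median absolute log2 fold change was 0.15 over the proteasome genes, 0.31 over all tested genes and 0.29 over the 9126 genes within the same expression range.

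**Figure D1:**
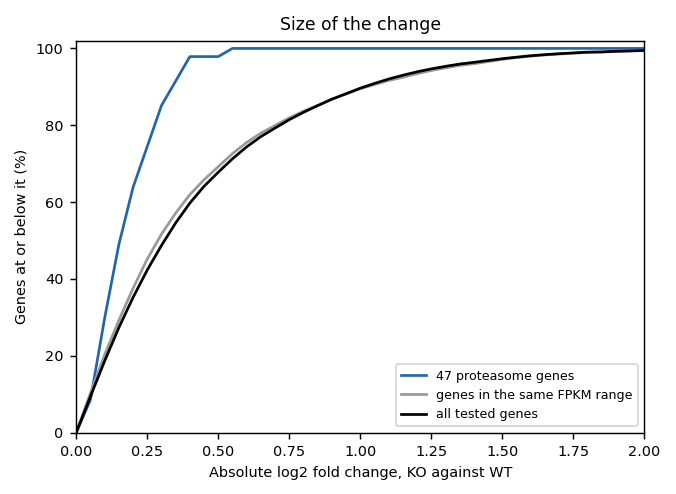
Cumulative share of genes (%, vertical axis) whose absolute log2 fold change between KO and WT is at or below the value on the horizontal axis, for the 47 tested proteasome genes, for genes in the same FPKM range and for all tested genes. The curve of the proteasome genes reaches 97.9% at 0.4, where all tested genes are at 59.7%.

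The small shifts leaned one way. Of the 47 genes 36 (76.6%) had a log2 fold change below 0, against 52.8% of all tested genes, and the medians were −0.12 and −0.03. The groups did not overlap in 29 of the 47 genes (61.7%), close to the background of 60.1%. In 21 genes every KO library was below every WT library (44.7%, background 31.0%), and in 8 every KO library was above (17.0%, background 29.1%). The median gene lay 0.09, 0.13 and 0.15 below its WT mean in KO replicates 1, 2 and 3 on the log2 scale, and the median of all tested genes lay at 0.01, −0.01 and −0.07. KO replicate 3 was thus the lowest in both. All 48 genes together took 0.383%, 0.401% and 0.385% of the reads in WT and 0.359%, 0.357% and 0.356% in KO tissue, and these ranges did not overlap. Replicates were tight: the median coefficient of variation was 5.12% in WT and 5.10% in KO, against 7.85% and 12.6% over all tested genes. Over the genes within the same expression range it was 6.2% in WT and 9.8% in KO.

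The calls depended on single libraries, most on WT replicates 2 and 3. Without WT replicate 2 or without WT replicate 3 only Psmb6 was called, with 23.6% and 24.2% of all tested genes called in those fits, while the median over the proteasome genes was −0.11 and −0.13. The other 8 calls had limma adjusted p of 0.0524 to 0.153 and 0.0581 to 0.127 in those fits. Psmb5, Psmc6 and Psmd8 were called in each of the 4 remaining fits, and Psma5 and Psma7 in 3 of them. Psmc3, Psmd1 and Psmg1 also lost their calls without KO replicate 1 and without KO replicate 2.

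**Figure D2:**
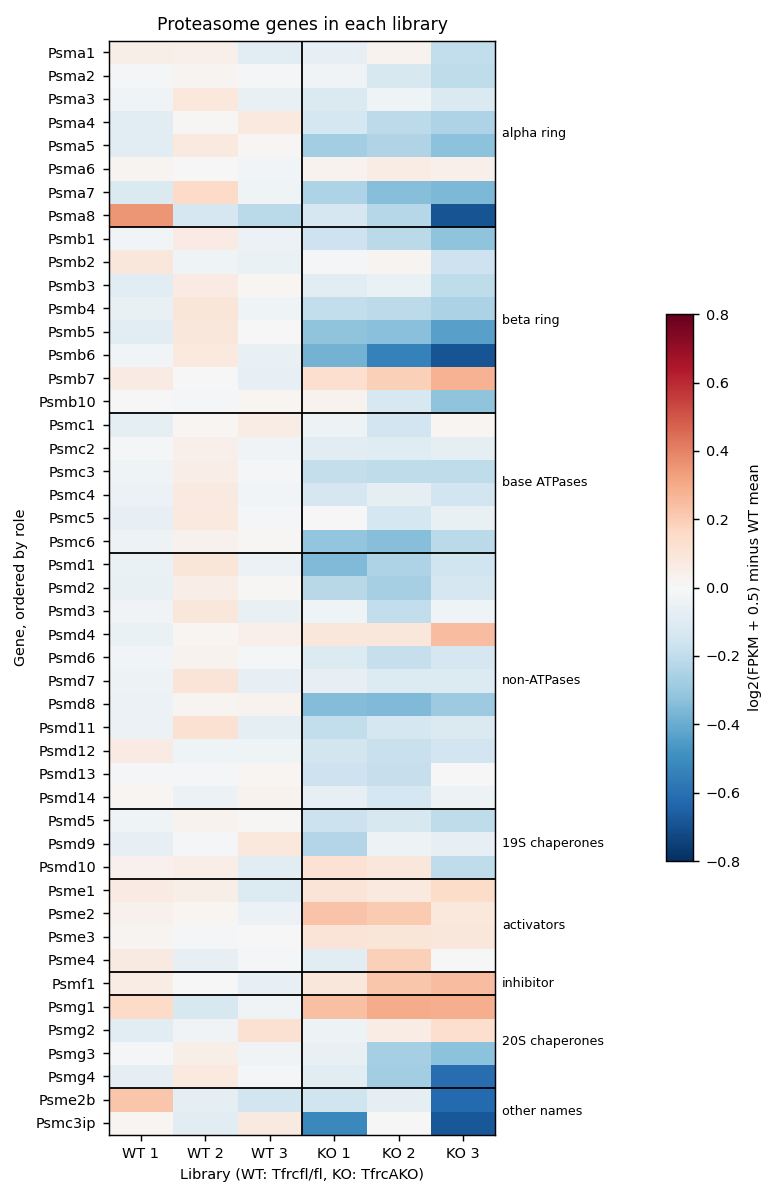
Each row is a proteasome gene, ordered by role, and each column a library; colour is log2(FPKM + 0.5) minus the mean of the 3 WT libraries. Most α, β, base and non-ATPase rows are bluer in the KO columns, with Psmb6 the darkest abundant gene, while Psmb7, Psmd4, Psme1, Psme2, Psme3, Psmf1 and Psmg1 are among the rows that are red in all 3 KO columns.

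In the β ring, the catalytic subunits went different ways. Psmb6, the caspase-like subunit (ENSMUSG00000018286, mm10 chromosome 11, 70525367 to 70527858, plus strand), was at 149, 160.2 and 145 FPKM in WT and at 116, 104 and 93.7 FPKM in KO replicates 1, 2 and 3. The groups were far apart, and Psmb6 fell by 0.54 ± 0.10 (SE) on the log2 scale (limma adjusted p = 0.00906). It was the most abundant of all the proteasome genes in WT tissue. Psmb5, the chymotrypsin-like subunit and the site that bortezomib binds (ENSMUSG00000022193, chromosome 14, 54614120 to 54617995, minus strand), was at 126, 143 and 134 FPKM in WT and at 107, 107 and 99.1 FPKM in KO. It fell by 0.36 ± 0.08 (SE, limma adjusted p = 0.0151), again with no overlap between the groups. Mir686 lies on the same strand within 12.1% of its exonic bases. Psmb7, the trypsin-like subunit (ENSMUSG00000026750, chromosome 2, 38588036 to 38644087, minus strand), was at 91.4, 87.0 and 83.3 FPKM in WT and at 95.6, 99.6 and 106 FPKM in KO. Here the KO libraries were all the higher ones, but the log2 fold change of 0.20 ± 0.08 (SE) had a limma adjusted p of 0.0820 and was not called. Of the exonic bases of Psmb7, 11.8% overlap Nek6 on the opposite strand, and reads there cannot be assigned without the strand setting.

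Set side by side, the group means of the 3 constitutive catalytic mRNAs were unequal in WT fat and close to equal in KO fat. Single KO libraries differed more, and the comparison between genes rests on the deposited gene lengths and on Psmb7 exons that overlap Nek6. In WT the means were 134 ± 8.26 for Psmb5, 152 ± 7.76 for Psmb6 and 87.2 ± 4.06 FPKM for Psmb7 (SD, n = 3 each). In KO they were 104 ± 4.46, 105 ± 11.4 and 100.3 ± 5.12 FPKM (SD, n = 3 each). The level of Psmb6 relative to Psmb7 was 1.63, 1.84 and 1.74 in WT and 1.22, 1.04 and 0.886 in KO replicates 1, 2 and 3. The ratio of Psmb5 to Psmb7 was 1.38, 1.64 and 1.61 in WT and 1.12, 1.07 and 0.938 in KO. Neither ratio overlapped between the groups; they were chosen after the values were seen and carry no test.

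Psmb10 is the interferon-inducible subunit that replaces Psmb7 in the immunoproteasome (ENSMUSG00000031897, chromosome 8, 105935728 to 105938392, minus strand). It was at 44.5, 44.5 and 45.1 FPKM in WT and at 45.6, 40.8 and 35.7 FPKM in KO. The groups overlapped, and the log2 fold change of −0.14 ± 0.10 (SE) was not called (limma adjusted p = 0.277). The ratio of Psmb10 to Psmb7 was 0.487, 0.511 and 0.542 in WT and 0.477, 0.410 and 0.338 in KO. All 3 KO ratios were below the WT ratios, a difference of −0.34 on the log2 scale; the two-sided exact permutation test gave p = 0.1, the smallest that 3 against 3 samples allow. KO replicate 3, the library with the lowest macrophage sum, had the lowest ratio, and the difference was −0.21 without it.

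**Figure D3:**
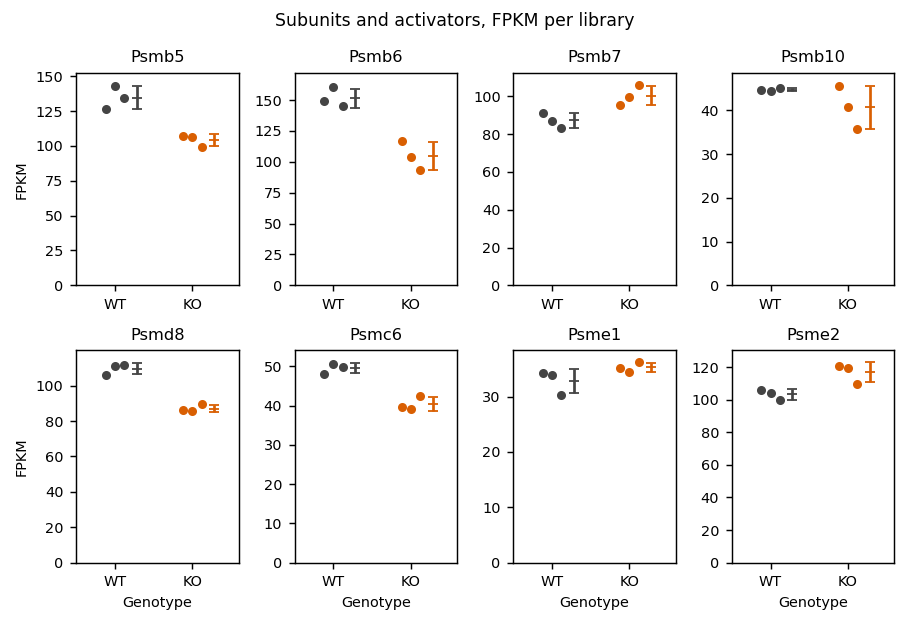
FPKM (vertical axes, from 0) in each library for 4 β-ring genes, Psmd8, Psmc6 and the PA28 genes; points are libraries, and the bars beside them are mean ± SD of the 3 libraries. Psmb5, Psmb6, Psmd8 and Psmc6 are lower in all KO libraries, Psmb7, Psme1 and Psme2 are higher in all, and Psmb10 overlaps.

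The structural β subunits followed the downward lean without passing the test. Psmb1 and Psmb4 were below WT in every KO library, with log2 fold changes of −0.23 and −0.22 and limma adjusted p of 0.0567 and 0.0566. Psmb2 and Psmb3 overlapped between the groups. Psmb11, the thymus-specific β5 variant, had 1, 0 and 0 reads in WT and 0, 1 and 2 reads in KO replicates 1, 2 and 3 and was the gene that failed the filter. At this depth 3 reads on a 2 kb gene correspond to 0.0489 to 0.0594 FPKM, a limit for counting error only.

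Promoter windows of subunits are shown because Nfe2l1 and its relative Nfe2l2 act through the antioxidant response element, here searched as TGACNNNGC on both strands. The window was RefSeq's 250 bases before to 50 after each start site (GRCm38.p6, the patch release of mm10), and 40 of the 48 genes had an entry. Those letters occurred in 6 of the 40 (15.0%), close to the 12.5% of all 27025 promoters. The 6 were Psmb5, Psmb6, Psmc6, Psmd9, Psmd12 and Psme4. Windows on the gene's strand follow for the 5 matches that lie wholly before the start site, with the matching letters in capitals.
Psmb5 (chr14:54618022-54618054, minus strand, 47 bases before the start): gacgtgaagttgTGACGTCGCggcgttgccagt
Psmb6 (chr11:70525336-70525356, plus strand, 9 bases before): gactaaagagagTGACGGAGC
Psmc6 (chr14:45329585-45329617, plus strand, 227 bases before, reverse orientation): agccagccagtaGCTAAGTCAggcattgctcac
Psmd9 (chr5:123228147-123228179, plus strand, 31 bases before): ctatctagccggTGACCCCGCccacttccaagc
Psmd12 (chr11:107479278-107479301, plus strand, 247 bases before, reverse orientation): tctGCTGTGTCAcatttgcccccc
Psmb5, Psmb6 and Psmc6 are among the called decreases, and Psmd9, Psmd12 and Psme4 are not. Of the 33 tested genes whose promoter lacked these letters, 4 fell and 1 rose, with a median log2 fold change of −0.12, against −0.22 over the 6. The 8 genes without an entry are in neither count, among them Psmb1, Psmb2, Psmb7 and the called decrease Psmc3. A match is a string of letters and not a shown binding site, and the motif was chosen with the expression results known. The CCAAT box, searched as CCAAT, was in 35.0% of the 40 promoters and 37.9% of all, and the core of the interferon element (GAAA, any 2 bases, GAAA) in 12.5% and 3.49%. The 5 genes with the latter were Psmb3, Psmd4, Psmd9, Psme1 and Psmg4.

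In the α ring, which forms the gate, 2 of 8 genes fell and none rose. Psma7 was at 66.2, 80.0 and 70.3 FPKM in WT and at 60.4, 56.6 and 55.9 FPKM in KO. WT replicate 2 was the highest, but the groups did not overlap, and the gene fell by 0.32 ± 0.09 (SE, limma adjusted p = 0.0301). Psma5 was at 56.2, 63.3 and 60.3 FPKM in WT and at 49.3, 50.7 and 47.6 FPKM in KO, a fall of 0.28 ± 0.07 (SE, limma adjusted p = 0.0230). Psma6, the most abundant α mRNA, went against the lean. It was at 109.6, 108 and 106 FPKM in WT and at 110.4, 113 and 111 FPKM in KO, a log2 fold change of 0.04 with a 95% interval from −0.12 to 0.21. The testis-enriched α4 variant Psma8 was barely present, with 15 to 62 reads per library and a mean of 0.743 FPKM. Psma4, with a log2 fold change of −0.20 (limma adjusted p = 0.0808), and Psma2 were below WT in every KO library without being called, and Psma1 and Psma3 overlapped.

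Among the 6 base ATPases, the motor that unfolds substrates, all log2 fold changes were below 0 and 2 were called. Psmc6 was at 48.1, 50.7 and 49.9 FPKM in WT and at 39.7, 39.1 and 42.5 FPKM in KO. It fell by 0.29 ± 0.07 (SE, limma adjusted p = 0.0151), and the gap between the groups was wider than the spread within either. Psmc3 was at 68.3, 72.8 and 69.2 FPKM in WT and at 61.4, 60.9 and 60.9 FPKM in KO, a fall of 0.20 ± 0.07 (SE, limma adjusted p = 0.0492) that was lost without any of 5 single libraries, the exception being KO replicate 3. Psmc3 shares 8.25% of its exonic bases with Slc39a13 on the opposite strand. Psmc1, the most abundant ATPase mRNA, was at 80.7, 86.2 and 88.7 FPKM in WT and at 82.9, 76.6 and 86.1 FPKM in KO, with overlapping groups. Psmc2 and Psmc4 were lower in every KO library without a call, and Psmc5 overlapped.

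Of the 11 non-ATPase subunits 10 had a log2 fold change below 0 and 2 were called. Psmd8, a lid subunit (ENSMUSG00000030591, chromosome 7, 29174188 to 29180701, minus strand), was the most abundant of them. It was at 106, 111 and 112 FPKM in WT and at 86.1, 85.6 and 89.4 FPKM in KO, and fell by 0.33 ± 0.07 (SE, limma adjusted p = 0.0123). Psmd1, the large scaffold of the base, was at 37.4, 41.6 and 37.7 FPKM in WT and at 30.3, 32.7 and 34.7 FPKM in KO. Htr2b on the opposite strand shares 3.47% of its exonic bases. Its fall of 0.25 ± 0.08 (SE, limma adjusted p = 0.0431) was kept in 1 of the 6 fits that left out a library. Psmd14, the deubiquitinase that strips ubiquitin chains from substrates, was at 48.5, 46.3 and 48.8 FPKM in WT and at 45.7, 43.3 and 46.5 FPKM in KO, overlapping and not called. The exception in direction was Psmd4, a ubiquitin receptor. It was at 47.5, 49.7 and 50.55 FPKM in WT and at 52.4, 52.5 and 58.4 FPKM in KO, above WT in all 3 libraries, with a log2 fold change of 0.14 ± 0.08 (SE) and a limma adjusted p of 0.167. Psmd2, Psmd6, Psmd11 and Psmd12 were lower in every KO library and not called, and Psmd3, Psmd7 and Psmd13, the last with 10.1% of its exonic bases shared with Sirt3, overlapped.

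**Figure D4:**
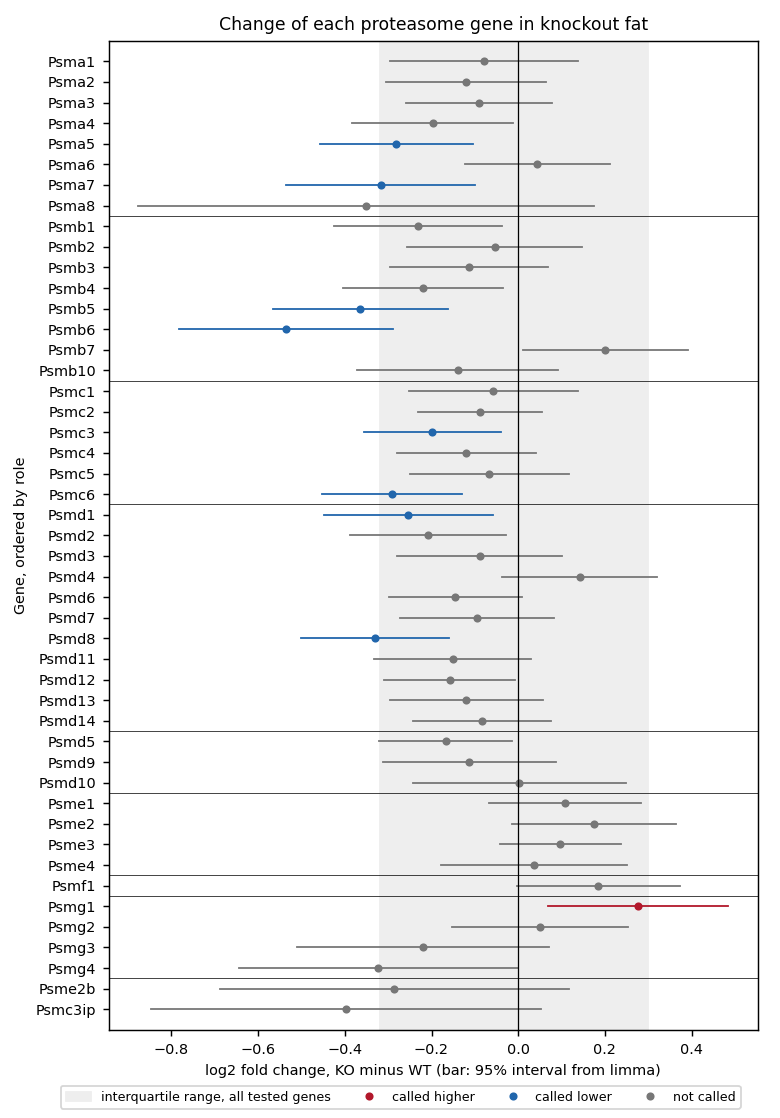
Log2 fold change (KO minus WT, horizontal axis) of each tested proteasome gene with its 95% interval from limma; colours mark genes called lower, called higher or not called, and the grey band is the interquartile range of all tested genes, −0.32 to 0.30. Most intervals of the α, β, base and non-ATPase genes lie mainly left of 0 and the points of the 4 activators lie right of it.

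The activators stood on the other side of 0, all 4 with a positive log2 fold change and none called. Psme2, the PA28β subunit, was at 106, 104 and 99.8 FPKM in WT and at 121, 119.8 and 109.8 FPKM in KO. Its partner Psme1, PA28α, was at 34.2, 33.8 and 30.3 FPKM in WT and at 35.2, 34.5 and 36.2 FPKM in KO. The nuclear PA28γ gene Psme3 was at 32.3, 31.5 and 31.7 FPKM in WT and at 34.1, 34.1 and 34.0 FPKM in KO. In these 3 genes every KO library was above every WT library, with log2 fold changes of 0.18, 0.11 and 0.10 and limma adjusted p of 0.115, 0.267 and 0.216. Psme4, which encodes PA200, overlapped: it was at 18.4, 16.7 and 17.3 FPKM in WT and at 16.5, 20.04 and 17.4 FPKM in KO. Psme2 was called without KO replicate 3 and in no other fit. Psme2b is a copy of Psme2 on chromosome 11 at 5.54 to 10.3 FPKM, so reads may be split between them and both are uncertain. Psme2b had a log2 fold change of −0.29, opposite in sign to Psme2, with overlapping groups and no call (limma adjusted p = 0.209). Psmf1, known as PI31, which inhibits the isolated core in vitro, was at 7.51, 7.18 and 6.85 FPKM in WT and at 7.67, 8.43 and 8.598 FPKM in KO. The groups did not overlap and the limma adjusted p was 0.0981.

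As summed FPKM, the β ring went from 761 ± 25.5 to 655 ± 28.6 and the α ring from 559 ± 16.0 to 511 ± 17.2 (SD, n = 3 each). The base ATPases went from 342 ± 11.99 to 312 ± 7.83 and the non-ATPases from 591 ± 14.2 to 531 ± 17.4. The 4 activators together went from 185 ± 5.95 to 204 ± 5.94. In these 5 sums no KO library reached into the WT range; the sums describe the groups and were not tested.

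The assembly chaperones were low and mixed. Psmg1, the PAC1 chaperone that helps build the α ring, was the only proteasome gene called higher. It was at 14.1, 11.4 and 12.3 FPKM in WT and at 14.9, 15.6 and 15.4 FPKM in KO, a rise of 0.28 ± 0.09 (SE, limma adjusted p = 0.0412). WT replicate 1 was close to the KO values, and the call was kept in 1 of the 6 fits that left out a library. Psmg4 was at 20.05, 22.2 and 20.9 FPKM in WT and at 19.8, 17.3 and 13.7 FPKM in KO, lower in each but widely spread, with a limma adjusted p of 0.0937. Psmg2, the partner of Psmg1, overlapped, and Psmg3 was low at a mean of 1.26 FPKM. Of the base chaperones, Psmd5 was below WT in every KO library with a log2 fold change of −0.17 (limma adjusted p = 0.0749). Psmd9 overlapped, and so did Psmd10, at 16.7, 16.9 and 15.2 FPKM in WT and 17.7, 17.3 and 14.04 FPKM in KO. Psmc3ip meets the naming rule but encodes a meiotic recombination factor, not a subunit; it was at a mean of 1.74 FPKM and was not called.

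Genes of the same machine without a Psm name gave called decreases too. Of 4 regulatory-particle subunits and deubiquitinases 3 fell, where 21.6% of all tested genes did. Usp14, which trims ubiquitin chains on the regulatory particle, was at 28.2, 28.6 and 29.6 FPKM in WT and at 23.2, 22.6 and 23.8 FPKM in KO, a fall of 0.31 ± 0.06 (SE, limma adjusted p = 0.01001). Uchl5, the other associated deubiquitinase, fell by 0.33 ± 0.07 (SE, limma adjusted p = 0.0122). Shfm1, the small lid subunit also called Sem1, fell by 0.37 ± 0.11 (SE, limma adjusted p = 0.0363). Adrm1, the receptor that anchors Uchl5, had a log2 fold change of 0.01 and was not called. Of 8 assembly and binding factors 4 fell and none rose, against 21.6% and 21.9% of all tested genes. Lists this short were not tested as sets. Pomp, the chaperone of β-ring assembly and the most abundant of the 8, was at 146, 148 and 148 FPKM in WT and at 131, 126 and 116 FPKM in KO. It fell by 0.25 ± 0.08 (SE, limma adjusted p = 0.0475), a call kept in 1 of 6 fits that left out a library. Zfand5, which binds the proteasome, fell by 0.42 ± 0.08 (SE, limma adjusted p = 0.00775). Its arsenite-inducible relative Zfand2a fell by 0.66 ± 0.13 (SE, limma adjusted p = 0.00967). Akirin2, needed for import of proteasomes into the nucleus, fell by 0.34 ± 0.09 (SE, limma adjusted p = 0.0200).

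The factors that control proteasome transcription moved in opposite directions. Nfe2l1, the factor that raises subunit genes when the proteasome is inhibited, was at 100.2, 90.9 and 91.7 FPKM in WT and at 134, 136 and 156 FPKM in KO. It rose by 0.59 ± 0.09 (SE, limma adjusted p = 0.00556). Ngly1, the enzyme that removes sugars from the Nfe2l1 protein during its activation, rose by 0.50 ± 0.10 (SE, limma adjusted p = 0.0106). Ddi2, the protease that cleaves Nfe2l1, was at 13.7, 15.3 and 14.03 FPKM in WT and at 11.6, 10.9 and 7.68 FPKM in KO, and fell by 0.51 ± 0.15 (SE, limma adjusted p = 0.0354). Nfe2l2, the oxidative-stress factor, was at 52.0, 56.5 and 49.5 FPKM in WT and at 41.0, 38.7 and 33.4 FPKM in KO, and fell by 0.48 ± 0.10 (SE, limma adjusted p = 0.0104). The calls for Nfe2l1, Ngly1 and Nfe2l2 were kept in all 6 fits that left out a library, and that for Ddi2 in 3. Vcp, Syvn1 and Keap1 were not called, so 2 of the 7 genes rose and 2 fell, where 21.9% and 21.6% of all tested genes did. The activity of these factors depends on protein processing that mRNA levels do not show.

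Several enzymes known as Nfe2l2 targets fell in KO tissue, where 21.6% of all tested genes did. Hmox1, the heme-degrading oxygenase, was at 209, 250.4 and 236 FPKM in WT and at 64.1, 61.2 and 39.4 FPKM in KO. It fell by 2.10 ± 0.19 (SE, limma adjusted p = 0.00343). Srxn1, of the peroxiredoxin system, fell by 1.86 ± 0.18 (SE, limma adjusted p = 0.00363). Txnrd1, of the thioredoxin system, fell by 1.28 ± 0.12 (SE, limma adjusted p = 0.00343). Gclm, Gclc and Nqo1 fell too, and the smallest of these 6 decreases was −0.48 (Gclc), similar in size to that of Psmb6. G6pdx was not called. The cystine transporter Slc7a11 passed the filter only through its WT libraries, at 0.591, 0.682 and 0.662 FPKM against 0.106, 0.164 and 0.0944 FPKM in KO. Its call as lower could not be repeated without a WT library, where it failed the filter. The macrophage markers, whose median was −1.17, were lower in the same samples; their part in these decreases was not tested.

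**Figure D5:**
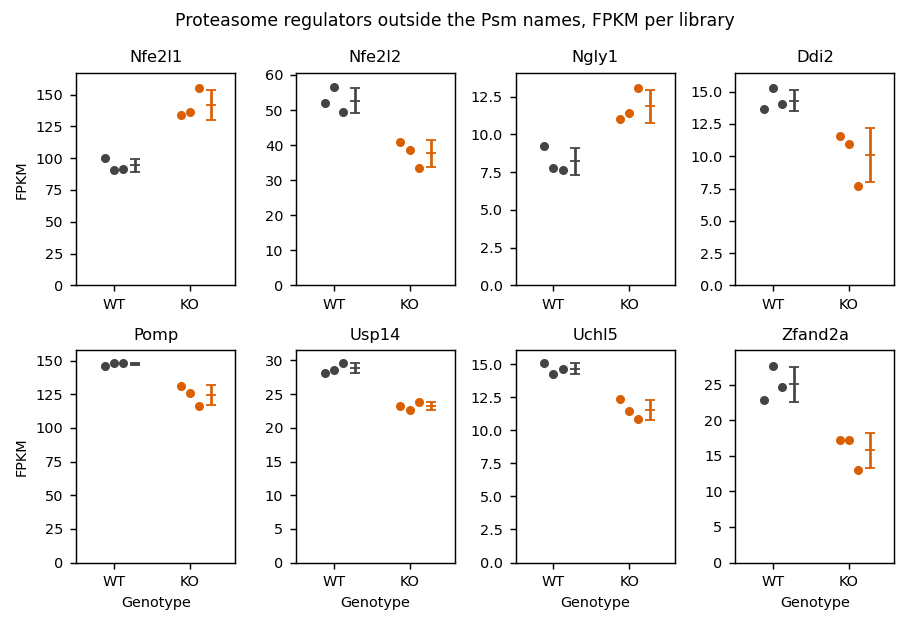
FPKM (vertical axes, from 0) in each library for 8 proteasome regulators without a Psm name; points are libraries and the bars beside them mean ± SD of the 3. Nfe2l1 and Ngly1 are higher and Nfe2l2, Ddi2, Pomp, Usp14, Uchl5 and Zfand2a lower in all 3 KO libraries than in any WT library.

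Genes of substrate supply went both ways, in short lists that were not tested as sets. Of all tested genes 21.9% rose and 21.6% fell. Of the 6 shuttle receptors that bring ubiquitinated proteins to the proteasome, Ubqln1 rose by 0.42 ± 0.12 (SE, limma adjusted p = 0.0253), Ddi2 fell and 4 were not called. Of the 3 genes of the p97 segregase, which extracts proteins for degradation, only Ufd1l rose, by 0.30 ± 0.07 (SE, limma adjusted p = 0.0182). Among ubiquitin and E1 genes, Rps27a, a fusion of ubiquitin with a ribosomal protein, fell by 0.61 ± 0.15 (SE, limma adjusted p = 0.0185), and the E1 enzyme Uba6 fell by 0.80 ± 0.23 (SE, limma adjusted p = 0.0321). The polyubiquitin gene Ubb and the main E1, Uba1, were not called. In MHC class I antigen processing, which receives peptides made with the help of PA28, the transactivator Nlrc5 rose by 0.33 ± 0.10 (SE, limma adjusted p = 0.0374). Tapbp, which loads peptides onto class I molecules, rose by 0.23 ± 0.07 (SE, limma adjusted p = 0.0424). B2m, the light chain of class I molecules, had a log2 fold change of 0.39 that was not called (limma adjusted p = 0.0604). Among the called genes of these lists, Usp14, Zfand5 and Zfand2a kept their calls in all 6 fits that left out a library. Uchl5, Shfm1, Pomp, Akirin2, Ubqln1, Ddi2, Ufd1l, Rps27a, Uba6, Nlrc5 and Tapbp lost theirs without WT replicate 3, with limma adjusted p from 0.0504 (Uchl5) to 0.139 (Pomp). Of these, only Uchl5 kept its call without WT replicate 2.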

How the data were processed

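RNA was sequenced from 3 WT and 3 KO samples. Per the submitters' processing notes, CASAVA, FastQC, STAR 2.5 and HTSeq 0.6.1 were used with the build mm10; strand setting and annotation release were not given there. The authors deposited FPKM per gene and sample, scaled to the reads assigned to genes: multiplied by kilobases of length, every library adds up to 1000000. All values above 0 were whole multiples of what 1 read is worth, within 0.01 of a read, which gave the depths. Gene length, the other numeric column, was used as deposited.

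Log2(FPKM + 0.5) of genes with at least 0.5 FPKM in 3 samples was fitted with limma 3.58.1 (R 4.3.3) with trend and robust moderation, two-sided, with Benjamini-Hochberg adjustment over 14383 genes and 0.05 as threshold. Percentages called are over the same genes. The fit was checked on simulated reads. Whether samples came from different mice is not stated in the labels; p-values then reflect only sample-to-sample spread, which may be technical. The genes and lists were chosen with earlier results of these data known. Listed genes were matched by symbol, older symbol or gene identifier; 1 of the related genes, Paaf1, had no match. Some listed genes are not reported here. Values by library are given for called members, the most abundant of each role and a set of catalytic, activator and control genes; in related lists, for up to 3 called genes with the smallest p. Other members are named after their values were seen. Exon overlaps come from GENCODE M21. Tables were made with Python 3.11.15, scipy 1.17.1 and pandas 2.3.3.

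Alternatives were pseudocounts of 0.1 and 1, a filter at 1 FPKM, no filter, the replicate block, median-of-ratios scaling, each library left out, WT replicate 2 and KO replicate 3 left out together and, added after the data were seen, limma-voom on the recovered reads.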

Additional observations from a re-analysis of the deposited data

How the results depend on the processing

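Pseudocounts of 0.1 and 1 and a filter at 1 FPKM gave 8 members lower and 1 higher, the same 9 genes. With no filter 5 fell and 0 rose (1 each in the α ring, base ATPases and non-ATPases, and 0 higher core chaperones), with 21.2% of all genes called. Leaving out KO replicate 3 and WT replicate 2 together also gave 5 lower and 0 higher (0 in the α ring, 1 base ATPase, 0 higher core chaperones). Median-of-ratios scaling gave 7 lower and 1 higher, with 1 base ATPase and 1 non-ATPase, and all 47 genes kept their sign. Limma-voom on the recovered reads gave 9 lower and 0 higher (4 in the β ring, 1 base ATPase, 0 higher core chaperones). With the replicate block only Psmb6 was called (1 lower, 0 higher; 1 in the β ring and 0 in the α ring, base ATPases, non-ATPases and core chaperones), with 31.9% of all genes called. Deviations of same-numbered WT and KO samples from their group means correlated at −0.24, 0.03 and −0.18. Samples did not correlate best with their own number. With so few samples the deviations within a group are tied to one another, so these values cannot decide whether the numbers mark pairs. Leaving out single libraries gave 1 to 10 lower and 0 to 1 higher; by role the lower counts ranged from 0 to 2 (α ring), 1 to 2 (β ring), 0 to 2 (base ATPases), 0 to 4 (non-ATPases), 0 to 1 (core chaperones) and 0 to 1 (other names), and the higher counts from 0 to 1 for activators and for core chaperones. Without WT replicate 2 or WT replicate 3 the lower count was 1 each. Among genes not called, Psmd10 ranged from −0.056 to 0.104 over fits without 1 library, turning below 0 without WT replicate 3 (−0.043), KO replicate 1 or KO replicate 2 (−0.042). Psme4 ranged from −0.042 (without KO replicate 2) to 0.096. The Psmb10 to Psmb7 difference ranged from −0.46 to −0.21 over fits without 1 library. The cause of these losses of calls was not tested. An edgeR fit was planned only for a table of raw counts and was not run, because the table holds FPKM. A TMM-scaled voom fit was not run either.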
